A study of Homo sapiens with 18 samples.

Results

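The data described here are the RNA-Seq response to thapsigargin of HEK293doxERN2 cells held at a low induced level of ERN2. HEK293 is a human embryonic kidney cell line, and this derivative carries a FLAG-ERN2 transgene that is switched on by doxycycline. Both groups received 10 ng/mL doxycycline for 24 hours, and were given for 3 hours either 200 nM thapsigargin (labelled stress) or the same volume of DMSO as vehicle (labelled control). The libraries were chosen by their titles, 3 with low ERN2 and stress and 3 with low ERN2 and control, which makes 6 of the 18 libraries of the series. The other 12 libraries came from the same line without doxycycline or with 100 ng/mL of it, with vehicle or thapsigargin, and are used here only where the response at 10 ng/mL is set against theirs. Of 25435 rows of gene symbols, 14607 had enough counts in the 6 libraries to be tested. The cells are 1 engineered line, the labels do not say whether replicates were separate cultures, and p-values therefore measure the spread between these libraries, which may be technical.

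Thapsigargin blocks the calcium pump of the endoplasmic reticulum (ER), so that calcium leaks from the ER, proteins fold poorly there and the unfolded protein response (UPR) starts. The UPR has 3 sensors in the ER membrane. IRE1, in its forms encoded by ERN1 and ERN2, splices XBP1 mRNA into the message of a transcription factor and can also cut other mRNAs (regulated IRE1-dependent decay, RIDD). PERK, encoded by EIF2AK3, lowers translation and favours that of ATF4, which switches on CHOP (DDIT3) and amino acid genes, and ATF6 is cut in the Golgi to release a transcription factor for ER chaperone genes. ERN2 is the IRE1 form that is mostly found in mucus-secreting epithelium, and HEK293 cells are not such cells.

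Between 19985806 and 24413882 reads were counted on genes in the 6 libraries, and no pair of replicates was alike within sampling noise (chi-square per degree of freedom 10.3 to 49.0). The extraction label speaks of colon crypt epithelial cells, whereas the source label names the HEK293 line. Of 11 colon epithelial markers, 9 were under 1 CPM (the count of a gene scaled to a library of common size by the TMM method) in each of the 6 libraries, TFF3 was at 0, and the largest value of any was LGR5 at 20.9 CPM. Their summed level was 21.2 to 28.2 CPM with vehicle and 22.9 to 25.1 CPM with thapsigargin, and all 4 markers of blood, endothelium and fibroblasts were under 1 CPM, with PTPRC at 0. The 5 markers of the HEK293 line summed to 2076 to 2343 CPM with vehicle and 1583 to 1985 CPM with thapsigargin, most of it VIM. Replicates 1 and 3 differed by the GC content of genes within both groups, with a correlation across 13602 genes of -0.58 with vehicle and -0.49 with thapsigargin between GC content and the log2 difference of the 2 libraries. Genes share libraries and are not replicates, so no p is given. The part of that difference in the results was not tested beyond the fit with the GC trend removed.

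ERN2 itself was counted at 22.5, 27.1 and 55.9 CPM in vehicle replicates 1, 2 and 3 and at 32.1, 53.9 and 112 CPM in thapsigargin replicates 1, 2 and 3. Replicate 3 was the highest of each group and the groups overlapped, while each thapsigargin library was above the vehicle library of the same number. The log2 fold change of 0.89 ± 0.43 (SE) did not pass the threshold of 0.01 used throughout (adjusted p = 0.235, quasi-likelihood test of edgeR, two-sided), and it ran from 0.28 without thapsigargin replicate 3 to 1.41 without vehicle replicate 3. With the replicate number as a block in the same test, ERN2 passed (adjusted p = 3.71e-08, edgeR), so the result depends on whether same-numbered libraries are treated as pairs. In vehicle-treated cells the ERN2 level was 9.10, 6.57 and 7.71 CPM without doxycycline and 252, 309 and 249 CPM at 100 ng/mL, so the 3 vehicle libraries at 10 ng/mL lay between those of the other doses without overlap. Reads of the transgene and of the cells' own ERN2 gene (chr16:23690326-23713500, minus strand, GRCh38) cannot be told apart in these counts.

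Thapsigargin changed 212 of the 14607 genes at an adjusted p under 0.01 (1.45%), of which 169 were higher (1.16%) and 43 lower (0.294%). In all 212 the 3 thapsigargin libraries lay outside the range of the 3 vehicle libraries, which was so for 28.5% of all genes tested, 15.6% above and 12.9% below. The fold was at least 2 in 112 of the higher and 24 of the lower genes, and the median log2 fold change was 1.22 among the higher, -1.09 among the lower and -0.01 over all genes. In bulk libraries fewer cells of a kind and less RNA per cell cannot be told apart. The number of genes called depended on single libraries. Without vehicle replicate 2 the count was 28 (25 higher and 3 lower), and without thapsigargin replicate 2 it was 57. Without vehicle replicate 3 it was 117 and without thapsigargin replicate 3 it was 494. All 212 genes kept their direction in each of the 6 fits that left out 1 library, and 28 passed the threshold in each of them. DESeq2 called 1101 genes, with 667 higher and 434 lower, so that 60.6% of its calls were higher against 79.7% of those in edgeR, and 210 of the 212 were among them. These 28 include CHAC1, HERPUD1, DDIT3, PTGS2, RCAN1, STC2, HSPA5, XBP1, FICD and PPP1R15A among the higher genes, and HSPA8, COL2A1 and ANKRD33B are the lower ones.

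**Figure D1:**
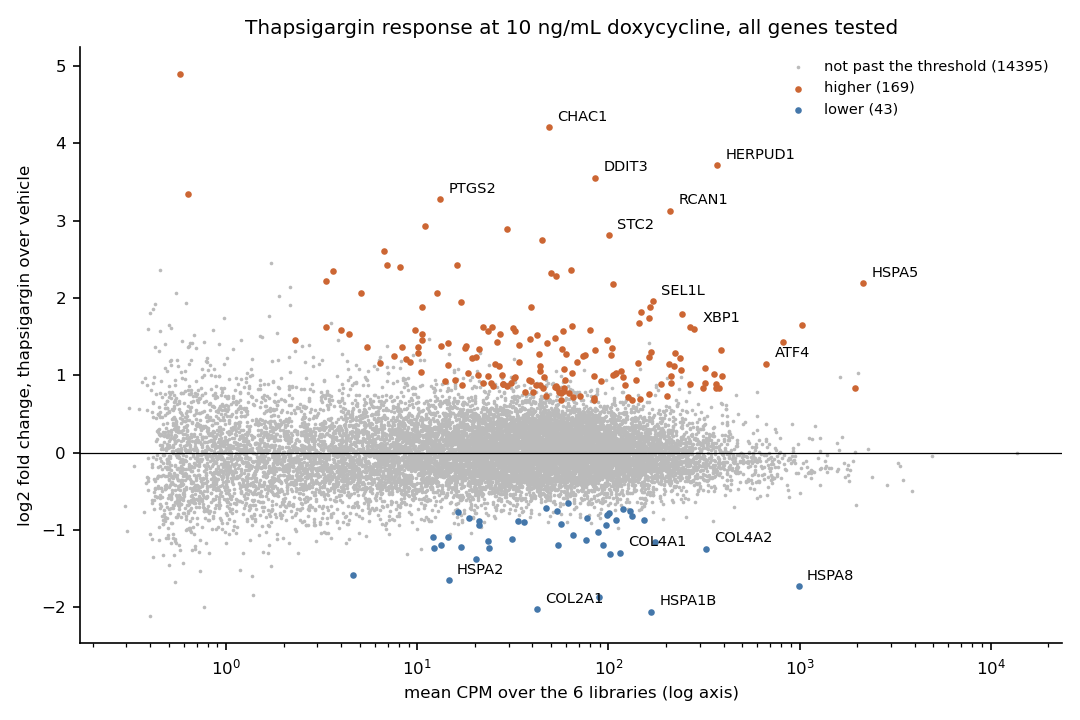
Log2 fold change of thapsigargin over vehicle at 10 ng/mL doxycycline (vertical axis) against the mean CPM of the 6 libraries (horizontal log axis), 1 point per gene tested. The 169 higher genes reach a log2 fold change of 4.90 in CCL8, which rests on few reads (at most 1.36 CPM in any library), and of 4.21 in CHAC1, and the 43 lower genes reach -2.05 in HSPA1B.

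The counts in gene lists given from here on stand beside 1.16% higher and 0.294% lower over all genes tested. Beside counts of groups that were apart stand 15.6% of all genes above vehicle and 12.9% below it. Among the 22 UPR sensors and transcription factors, 7 rose, none fell and 15 did not pass the test, with a median log2 fold change of 0.50. Without vehicle replicate 2 the number called was 4. XBP1, the target of IRE1 splicing, was at 139, 129.6 and 145 CPM with vehicle and 459, 435 and 369 CPM with thapsigargin. The groups were far apart and the fold was 3.04 (log2 1.61 ± 0.12, adjusted p = 9.4e-05, edgeR). Gene counts add the spliced and unspliced forms of XBP1 mRNA, so they do not measure splicing. ERN1, the other IRE1 gene, was lower in abundance, at 7.34, 7.57 and 8.12 CPM with vehicle and 11.2, 14.8 and 10.2 CPM with thapsigargin. Its groups did not overlap, yet it did not pass the threshold (log2 0.65 ± 0.18, adjusted p = 0.0554, edgeR).

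EIF2AK3, which encodes PERK, was at 37.1, 34.4 and 33.2 CPM with vehicle and 94.7, 95.6 and 65.0 CPM with thapsigargin, all thapsigargin libraries above vehicle and a fold of 2.43 (adjusted p = 0.00183, edgeR). ATF4 rose 2.22-fold from 414 ± 41.8 to 923 ± 133 CPM (SD, n = 3), again without overlap. DDIT3, the gene of the stress factor CHOP, was at 13.2, 13.9 and 12.7 CPM with vehicle and 156, 156 and 159.6 CPM with thapsigargin. The thapsigargin libraries were close to each other, far above vehicle, and the fold was 11.8 (log2 3.56 ± 0.12, adjusted p = 1.77e-07, edgeR). The bZIP factors CEBPB, ATF3 and CEBPG, which pair with ATF4 or CHOP, rose by 2.32, 1.80 and 1.30 on the log2 scale. ATF6 was at 119.8, 93.4 and 89.8 CPM with vehicle and 136, 149 and 93.4 CPM with thapsigargin, with overlap between the groups and an adjusted p of 0.311 in edgeR. The lowest of the 22 was MBTPS1, the protease that makes the first cut in ATF6, at -0.34 ± 0.11 (log2, SE) with an adjusted p of 0.104 in edgeR. BHLHA15, a transcription factor of secretory cells and a known XBP1 target, was at 2.46, 3.66 and 5.02 CPM with vehicle and 2.73, 8.13 and 5.15 CPM with thapsigargin, with overlap.

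**Figure D2:**
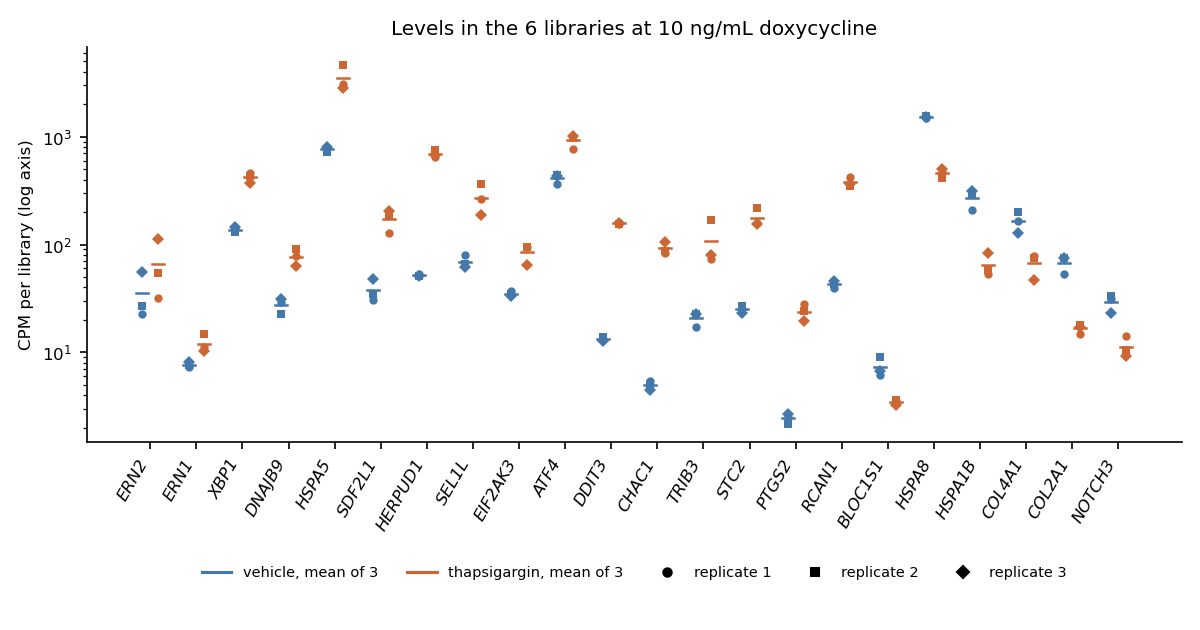
CPM of 22 genes in each of the 6 libraries at 10 ng/mL doxycycline (vertical log axis), with 1 marker shape per replicate number and a bar at the mean of 3. The groups overlap in ERN2 and are apart in the other 21 genes, with HSPA5 from 718 to 795 CPM with vehicle and from 2851 to 4624 CPM with thapsigargin.

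Of 22 ER chaperones and cofactors, 9 rose, none fell and 13 did not pass the test, with a median log2 fold change of 1.01. All thapsigargin libraries lay above vehicle in 13 of the 22 and below it in 2, and without vehicle replicate 2 the number called was 3. HSPA5, the ER HSP70 chaperone BiP, was at 786, 718 and 795 CPM with vehicle and 3102, 4624 and 2851 CPM with thapsigargin. Thapsigargin replicate 2 was the highest and no library overlapped with the other group, with a fold of 4.58 (log2 2.20 ± 0.18, adjusted p = 0.000159, edgeR). Replicate 2 was the highest thapsigargin library in 8 of the 9 genes that rose, and SDF2L1 was the exception. SDF2L1, a partner of ER J-proteins, was at 30.9, 34.8 and 48.3 CPM with vehicle and 128, 188 and 203 CPM with thapsigargin, and replicate 3 was the highest in each group. The J-protein DNAJB9 was at 29.1, 22.6 and 31.0 CPM with vehicle and 77.8, 90.3 and 63.7 CPM with thapsigargin, a fold of 2.79.

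FICD, the enzyme that switches BiP off and on by AMPylation, was at 10.9, 11.8 and 12.8 CPM with vehicle and 32.8, 38.8 and 34.4 CPM with thapsigargin, a fold of 2.97 (adjusted p = 0.000268, edgeR). The log2 fold changes of the others that rose were 1.88 for CRELD1, 1.68 for CRELD2, 1.66 for the nucleotide exchange factor HYOU1, 1.63 for the secreted stress factor MANF and 1.07 for the J-protein DNAJB11. HSP90B1 (1.04), CALR (0.98) and DNAJC3 (1.41) were above vehicle in all libraries but had adjusted p-values of 0.0113, 0.0136 and 0.0186 in edgeR. The lowest member was CNPY2 at -0.47, with an adjusted p of 0.0726.

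Of 26 genes of ER-associated degradation, which moves misfolded proteins out of the ER to the proteasome, 5 rose and none fell, with a median log2 fold change of 0.21, and 2 were called without vehicle replicate 2 and 3 without thapsigargin replicate 2. In each of the 5 the highest thapsigargin library was again replicate 2. HERPUD1, a scaffold of the degradation complex, was at 53.8, 51.2 and 51.6 CPM with vehicle and 643, 758 and 670.4 CPM with thapsigargin. Its fold of 13.2 (log2 3.72 ± 0.12, adjusted p = 1.77e-07, edgeR) was second only to that of CHAC1 among the called genes with a mean of at least 2 CPM. SEL1L, its membrane adaptor, was at 80.1, 66.6 and 62.0 CPM with vehicle and 263, 364 and 189.6 CPM with thapsigargin, the least even of the 5. DERL3, SYVN1 and DERL2, which form or feed the channel, rose by 1.82, 1.12 and 0.84 on the log2 scale. Of 19 protein disulfide isomerases and oxidases, PDIA4 (1.43) and TXNDC11 (0.74) rose, and the median of 0.07 changed sign among the alternatives (-0.05 to 0.16). Neither was called without vehicle replicate 2, 1 was called without vehicle replicate 3, thapsigargin replicate 1 or thapsigargin replicate 2, and 5 of the list were called without thapsigargin replicate 3. None of 30 genes of ER targeting, translocation and N-glycosylation and none of 32 COPII, COPI and ER-Golgi traffic genes passed the test, with medians of 0.04 (-0.12 to 0.11 among the alternatives) and 0.17.

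Promoter sequence was at hand from RefSeq (GRCh38.p14, 250 bases before to 50 bases after each listed start site) for 11517 of the 14607 genes tested. It was searched on both strands for elements that UPR factors are known to bind. The ER stress element (CCAAT, 9 bases, CCACG) was in the promoters of 16 of these genes (0.139%), of which 4 rose: CRELD2, FICD, HSPA5 and XBP1. Of the 16 genes, 15 had a log2 fold change above 0 and 11 had thapsigargin libraries all above vehicle, with a median of 0.72. CALR, CANX, HSP90B1, PDIA6 and SERP1, which serve folding or translocation in the ER, were among those that did not pass the test. ER stress element II (ATTGG, 1 base, CCACG) was in 15 (0.130%), of which HERPUD1, HYOU1, RAD9A and SDF2L1 rose, with a median of 0.19. The C/EBP-ATF element core (TTGCATCA), which ATF4 and CHOP dimers bind, was in 88 (0.764%), of which 9 rose (AARS, CARS, CEBPG, CHAC1, FBLL1, GZF1, HERPUD1, JDP2 and TARS), with a median of 0.20. Without vehicle replicate 2, XBP1, FICD and HSPA5 remained called among the first, HERPUD1 among the second and CHAC1, HERPUD1 and JDP2 among the third. No promoter of a gene that fell held any of these 3 elements, and 33 of the 43 had a promoter in the table. At shares of 0.139%, 0.130% and 0.764% over all genes, so few promoters would mostly hold none, and their absence shows no difference from all genes. The following stretches are shown because they are those upstream of genes that rose and hold at least 1 of the 3 elements, outside the exons of annotated coding transcripts, with the letters of the elements in capitals. They are given 5′ to 3′ on the strand of the gene.
HSPA5, chr9:125241381-125241419, minus strand: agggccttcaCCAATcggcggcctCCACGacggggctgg
CRELD2, chr22:49918544-49918582, plus strand: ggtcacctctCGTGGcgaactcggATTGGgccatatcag
FICD, chr12:108515113-108515151, plus strand: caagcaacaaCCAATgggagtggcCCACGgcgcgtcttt
SDF2L1, chr22:21642104-21642134, plus strand: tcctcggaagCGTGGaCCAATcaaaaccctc
HYOU1, chr11:119057264-119057403, minus strand: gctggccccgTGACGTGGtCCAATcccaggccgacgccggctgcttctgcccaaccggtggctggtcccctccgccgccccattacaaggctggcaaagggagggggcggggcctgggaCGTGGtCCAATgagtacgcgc
HERPUD1, chr16:56931956-56932045, plus strand: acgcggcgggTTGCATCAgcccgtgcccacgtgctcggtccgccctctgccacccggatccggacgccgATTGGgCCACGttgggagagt
CEBPG, chr19:33374061-33374088, plus strand: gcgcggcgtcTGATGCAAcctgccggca
GZF1, chr20:23364307-23364334, plus strand: tttagtccttTTGCATCAgtggttgctc
JDP2, chr14:75427996-75428021, plus strand: tagccggggcTGATGCAAcccgtccc

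HSPA5 and FICD hold the ER stress element in the direction of the gene and CRELD2 in the opposite direction. HERPUD1 holds both the C/EBP-ATF core and ER stress element II. HYOU1 holds ER stress element II 2 times, and the first copy overlaps the UPR element (TGACGTGG), whose letters are in capitals too. The UPR element and the cyclic AMP element (TGACGTCA) differ only in their last letters. The UPR element was in 144 promoters (1.25%), of which 4 rose and 1 fell, with a median of 0.09. The AP-1 site (TGANTCA) was in 830 (7.21%) with a median of 0.02, and the cyclic AMP element was in 439 (3.81%) with a median of 0.07. Of the 130 genes that rose and had a promoter in the table, 13 had an AP-1 site (10.0%) and 7 a cyclic AMP element (5.38%). The heat-shock element (GAA, 2 bases, TTC, 2 bases, GAA) was in 53 (0.460%), and it was held by HSPA8 among the genes that fell and by GAS5 and GLIS3 among those that rose. A match of letters is a description and does not show that a factor was bound.

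Of the 29 tested PERK-ATF4-CHOP target genes, 18 rose, none fell and the median log2 fold change was 1.22, the highest of the 22 gene lists. Without vehicle replicate 2 the number called was 6. CHAC1, an enzyme that degrades glutathione, was at 5.40, 5.11 and 4.44 CPM with vehicle and 84.1, 87.9 and 106 CPM with thapsigargin. The fold was 18.5 (log2 4.21 ± 0.16, adjusted p = 4.56e-07, edgeR), the largest among genes with a mean of at least 2 CPM. TRIB3, a pseudokinase that restrains ATF4 and CHOP, was at 17.1, 22.7 and 22.5 CPM with vehicle and 73.6, 167 and 79.9 CPM with thapsigargin, with replicate 2 far above the other 2 thapsigargin libraries. PPP1R15A, the phosphatase subunit GADD34 that restores translation, was even, at 125, 133 and 131 CPM with vehicle and 309, 331 and 316 CPM with thapsigargin (log2 1.29 ± 0.10). STC2, a secreted glycoprotein, and DDIT4, an inhibitor of mTORC1, rose 7.02-fold and 4.86-fold.

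The glycine transporter gene SLC6A9 was at 5.83, 9.03 and 6.08 CPM with vehicle and 35.3, 84.1 and 36.5 CPM with thapsigargin, and replicate 2 was again the highest of both groups. The cystine transporter gene SLC7A11 was also highest in thapsigargin replicate 2, at 70.0, 112 and 52.6 CPM with thapsigargin against 13.3, 12.2 and 9.19 CPM with vehicle. The amino acid enzymes ASNS and PSAT1 rose by 1.58 and 1.75, SESN2 by 1.89, CTH by 1.95 and JDP2 by 2.06 on the log2 scale. The lowest member was TRIB1 at -0.24 ± 0.15 (adjusted p = 0.343, edgeR). Of 20 cytosolic tRNA synthetase genes, CARS, AARS and TARS rose (1.01, 0.99 and 0.83), 11 had thapsigargin libraries all above vehicle, and the median was 0.47. None of the 20 was called without vehicle replicate 2 or without thapsigargin replicate 2, and 6 were called without thapsigargin replicate 3. Of 17 mitochondrial tRNA synthetase genes none passed the test, and the median of 0.08 changed sign under some of the alternatives, whose medians ran from -0.07 to 0.09.

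Of 30 genes of calcium pumps, channels and calcineurin signalling, PTGS2 and RCAN1 rose and none fell, with a median of -0.14. RCAN1, an inhibitor of calcineurin that is itself a calcineurin target, was at 39.6, 43.2 and 46.1 CPM with vehicle and 425, 346 and 361 CPM with thapsigargin. The fold was 8.75 (log2 3.13 ± 0.13, adjusted p = 9.32e-07, edgeR). PTGS2, the inducible cyclooxygenase, was at 2.51, 2.16 and 2.66 CPM with vehicle and 27.9, 24.2 and 19.5 CPM with thapsigargin, without overlap and with a fold of 9.70. ATP2A2, the ER calcium pump that thapsigargin blocks, was at 441, 472 and 408 CPM with vehicle and 763, 897 and 633 CPM with thapsigargin. Its groups were apart and its adjusted p of 0.0112 in edgeR did not pass the threshold. The lowest of the list was CALM3, a calmodulin gene, at -0.55 ± 0.12 (adjusted p = 0.0246, edgeR). Of 36 immediate-early and stress-kinase genes, NR4A2 (1.35) and GADD45A (1.26) rose, 13 were above vehicle in all libraries, and the median was 0.30. None of the 36 was called without vehicle replicate 2 and 1 was called without thapsigargin replicate 2.

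The 8 tested mRNAs known as RIDD substrates had a median log2 fold change of -0.57, with 5 below vehicle in all libraries, but none of them fell past the threshold in edgeR and PER1 rose (0.88). Both counts depended on the fit: 4 of the 8 fell in DESeq2, and PER1 lost its call without any 1 library other than thapsigargin replicate 3, and with RLE factors or library totals. BLOC1S1, the best known substrate, was at 6.11, 9.03 and 6.70 CPM with vehicle and 3.56, 3.59 and 3.25 CPM with thapsigargin. The groups did not overlap, the fold was 2.10 downward (log2 -1.07 ± 0.21) and the adjusted p of 0.0157 in edgeR missed the threshold, which was passed in DESeq2. CD59 (-0.84), SCARA3 (-0.75) and PMP22 (-0.63), which encode membrane proteins, had adjusted p-values of 0.0261, 0.0294 and 0.0160 in edgeR. RIDD and other changes in mRNA level cannot be told apart in these counts.

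**Figure D3:**
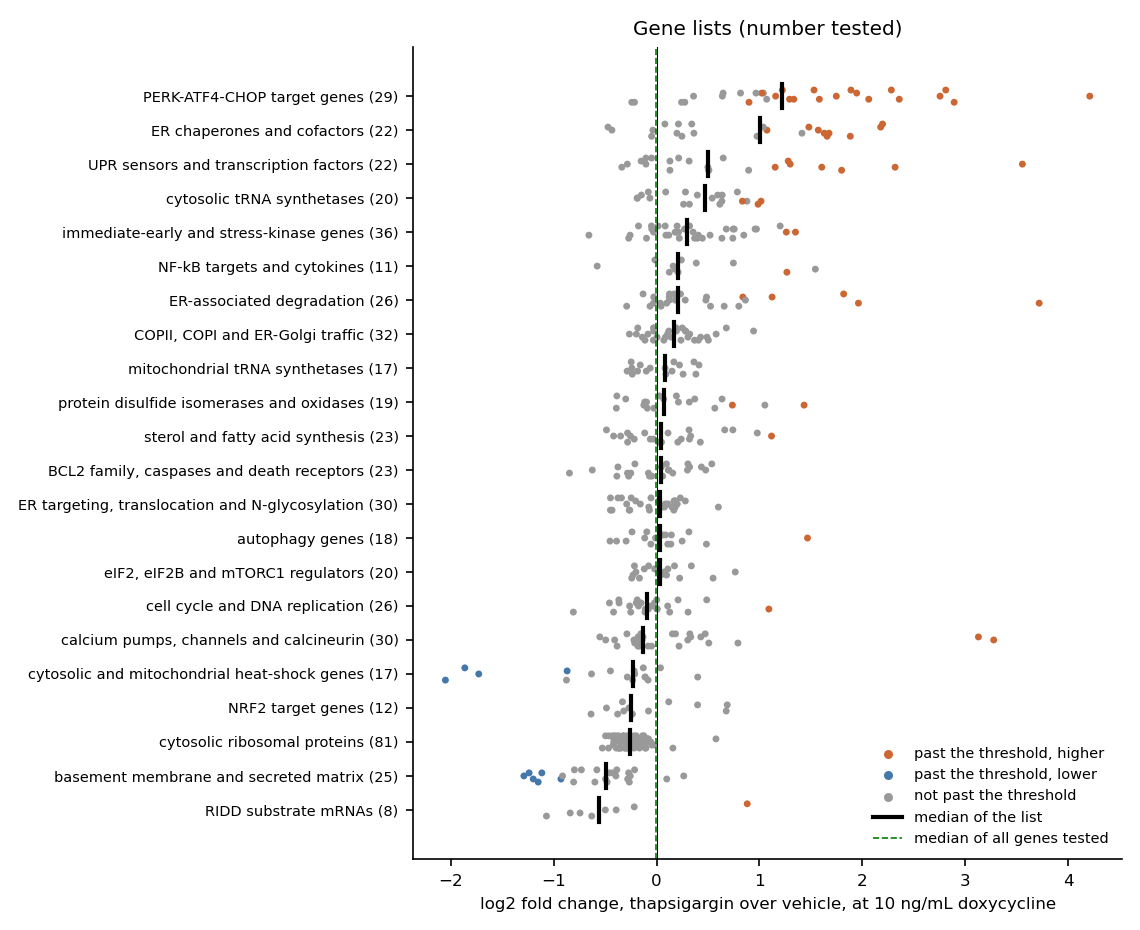
Log2 fold change of thapsigargin over vehicle at 10 ng/mL doxycycline (horizontal axis) for each tested member of 22 gene lists (rows, with the number tested), a black bar at the median of each list and a dashed line at the median of all genes (-0.01). Medians run from 1.22 for PERK-ATF4-CHOP targets to -0.57 for RIDD substrates, and points past the threshold on the low side are in 2 lists, heat-shock and matrix genes.

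The genes that fell hold 4 of 17 cytosolic and mitochondrial heat-shock genes and 6 of 25 basement membrane and secreted matrix genes, against 0.294% of all genes tested. Without vehicle replicate 2 these counts were 1 and 0, and without thapsigargin replicate 2 they were 2 and 0. HSPA8, the constitutive cytosolic HSP70, was at 1502, 1549.7 and 1508 CPM with vehicle and 467, 413 and 499.7 CPM with thapsigargin. It was 3.32-fold lower with thapsigargin in libraries that differed little within each group (log2 -1.73 ± 0.11, adjusted p = 3.33e-05, edgeR). The inducible HSP70 gene HSPA1B was at 207, 287 and 312 CPM with vehicle and 53.6, 57.6 and 83.9 CPM with thapsigargin. HSPA1A was at 108, 156 and 156 CPM and 32.7, 29.5 and 53.5 CPM in the same order. HSPA1A and HSPA1B are near-identical copies on chromosome 6 and the counting could split their reads, so their separate values are uncertain. DNAJB1, the partner J-protein, fell by 0.87 on the log2 scale, HSPE1 was at -0.88 with an adjusted p of 0.0149, and HSP90AA1 was at -0.21 (0.306). The list's median was -0.23, and HSPA2, an HSP70 gene outside the list, fell from 22.1 ± 1.13 to 7.08 ± 2.08 CPM (SD, n = 3).

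The matrix list had a median of -0.50, with 16 of 25 genes below vehicle in all libraries and none above, against 12.9% and 15.6% of all genes. COL4A1 and COL4A2, the 2 main chains of basement membrane collagen, lie next to each other on chromosome 13 (chr13:110148963-110307233, minus strand, and chr13:110305812-110513209, plus strand, GRCh38). Their annotated ends overlap, so reads there could count for either. COL4A1 was at 164, 200.3 and 127 CPM with vehicle and 78.6, 75.3 and 47.2 CPM with thapsigargin, and COL4A2 was at 439.8, 560.1 and 362 CPM and 214, 221 and 144 CPM. Replicate 3 was the lowest of each group in both genes, and the folds were 2.45 and 2.36 downward (adjusted p = 0.00862 and 0.00675, edgeR). COL5A1 (a fibrillar collagen chain), AGRN (the proteoglycan agrin), IGFBP5 (a binding protein of insulin-like growth factors) and COL18A1 had log2 fold changes of -1.20, -1.15, -1.12 and -0.93. COL2A1, a cartilage collagen gene outside the list, fell from 67.5 ± 12.7 to 16.7 ± 1.59 CPM (SD, n = 3), 4.06-fold lower. The receptors NOTCH3 (-1.38) and FZD10 (-1.58), the membrane metalloprotease MMP15 (-1.24) and the Wnt receptor ligase RNF43 (-1.23) fell as well.

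Many of these proteins enter the ER, and this was examined over all genes with a property of the encoded protein that the test did not use. A hydrophobic stretch of 12 residues near the amino terminus (mean Kyte-Doolittle hydropathy of at least 2 within the first 40 residues), as in a signal peptide, was predicted from GENCODE 29 in 17 of 39 genes that fell (43.6%), 18 of 145 that rose (12.4%) and 15.6% of all with a protein. The 17 became 1 without vehicle replicate 2, 1 without thapsigargin replicate 2 and 33 without thapsigargin replicate 3. The median log2 fold change was -0.20 in the 1999 genes with the stretch and 0.02 in the 10837 genes without it. The difference had the same sign without doxycycline (-0.17 and 0.02) and at 100 ng/mL (-0.39 and 0.06), in libraries that are not shared between the doses. With the GC trend of each library removed the medians at 10 ng/mL were -0.18 and 0.01. Genes that fell had a median GC content of 58.7%, those that rose 47.2% and all tested genes 49.6%, and the part of GC content in the pattern was not tested beyond that fit. No p is given, since genes of a library are not replicates.

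**Figure D4:**
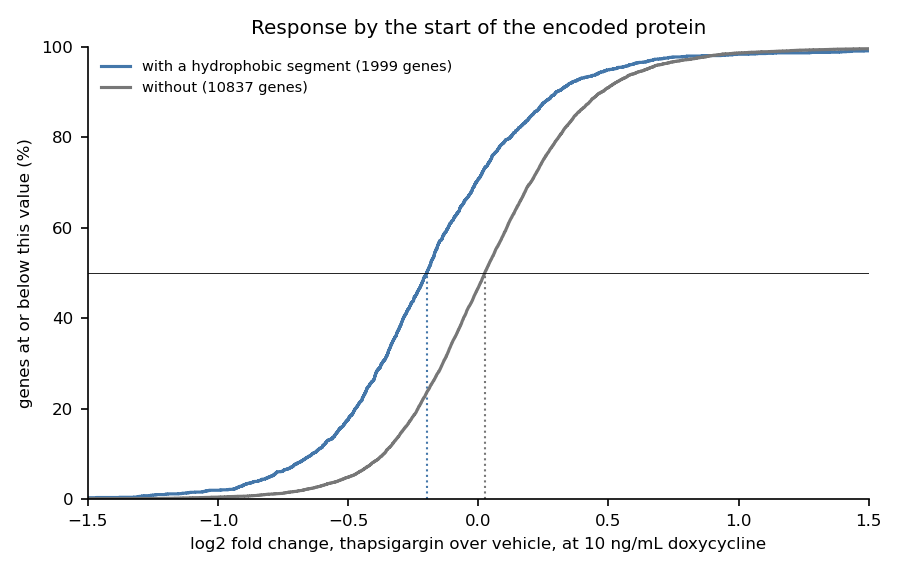
Share of genes at or below each log2 fold change at 10 ng/mL doxycycline (vertical axis in percent), for 1999 genes with a predicted hydrophobic stretch near the start of the protein and 10837 without. The curve of the first lies to the left over most of its range, with medians (dotted lines) at -0.20 and 0.02.

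The other lists had few calls. WIPI1, a lipid-binding autophagy protein, rose 2.76-fold as the only one of 18 autophagy genes, and VEGFA, the endothelial growth factor, rose 2.41-fold as the only one of 11 NF-kB target and cytokine genes. The steroid transfer gene STARD4 rose 2.17-fold as the only one of 23 sterol and fatty acid genes, and CDC6, a replication licensing factor, rose 2.13-fold as the only one of 26 cell cycle genes. None of these 4 lists had a call without vehicle replicate 2, and without thapsigargin replicate 2 the NF-kB list alone kept one. The medians of the autophagy, sterol and eIF2 lists changed sign among the alternatives. The cyclin gene CCND1 was at 92.1, 98.6 and 111 CPM with vehicle and 54.2, 49.8 and 68.8 CPM with thapsigargin, apart but with an adjusted p of 0.0122 in edgeR. None of 23 genes of the BCL2 family, caspases and death receptors passed the test (median 0.05, changing sign among the alternatives), nor did any of 12 NRF2 targets (-0.25) or 20 regulators of eIF2, eIF2B and mTORC1 (0.03). Of 81 cytosolic ribosomal protein genes none passed in the main fit and the median was -0.26. With the replicate number as a block, 1666 of all genes fell and 1954 rose, and of the 81 genes 43 fell and 1 rose. In all libraries 20 were below vehicle and 1 was above, against 12.9% and 15.6% of all genes. Outside the lists, the peptide hormone gene ADM2 (2.94), the zinc finger genes ZNF804A (2.60) and ZNF165 (2.43) and HSD17B7P2 (2.43) were among the 12 highest. HSD17B7P2 is a pseudogene of HSD17B7, which also rose (1.38), so reads could be shared between them.

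Set against cells without doxycycline, the response at 10 ng/mL had the same direction in the called genes. Of the 210 called genes that were also tested there, 210 had the same sign and 207 passed the threshold in the same direction, against the same sign in 73.1% of all 14146 shared genes. In the called genes the median size of the log2 fold change was 1.28 in uninduced cells, against 1.15 here. At 100 ng/mL 208 of 210 had the same sign (76.0% over all genes), 28 passed the threshold, and the median size was 0.79. The called genes were chosen on the libraries at 10 ng/mL, and a choice on one set of libraries favours larger sizes there. Across genes the correlation of log2 fold changes was 0.73 with the uninduced cells and 0.67 with the highest dose, over libraries that are not shared.

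The difference of the responses was tested as an interaction over 12 libraries. For 10 minus 0 ng/mL it passed 0.01 in 0 of 14857 genes (0%) in edgeR, with 664 genes at an unadjusted p under 0.05 (4.47%) and 3 past the threshold in DESeq2. On simulated counts this edgeR test recovered 31.5% of genes changed 2-fold, so a count of 0 does not show that the responses were alike. XBP1 had the smallest adjusted p, with a difference of -1.04 ± 0.14 (log2, SE, adjusted p = 0.0277, edgeR). It was at 75.4, 78.0 and 77.1 CPM with vehicle and 464, 494 and 486 CPM with thapsigargin without doxycycline, so the vehicle libraries at 10 ng/mL were all above and the thapsigargin libraries at 10 ng/mL all below those of uninduced cells. FICD differed by -1.13 ± 0.19 (adjusted p = 0.206) and DNAJB9 by -1.23 ± 0.27 (adjusted p = 0.779) in edgeR. FICD was at 4.60, 4.99 and 5.09 CPM with vehicle and 29.1, 36.6 and 29.7 CPM with thapsigargin in uninduced cells, and DNAJB9 at 10.8, 12.9 and 11.2 CPM and 70.6, 98.7 and 58.2 CPM. For both genes the vehicle libraries at 10 ng/mL were all above those without doxycycline, while the thapsigargin libraries overlapped. The gene of smallest p on the other side was EIF5A2, at 0.88 ± 0.20 (adjusted p = 0.779, edgeR).

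For 10 minus 100 ng/mL 0 of 14913 genes passed 0.01 (0%) in edgeR, with 926 at an unadjusted p under 0.05 (6.21%) and 8 past the threshold in DESeq2. Only 4.00% of genes changed 2-fold were recovered by this edgeR test on simulated counts, so the count of 0 says little about likeness of the responses. XBP1 was again first, with a difference of 1.13 ± 0.15 (adjusted p = 0.0495, edgeR) and levels at 100 ng/mL of 168, 167 and 151 CPM with vehicle and 221, 199 and 225 CPM with thapsigargin. HERPUD1 differed by 0.89 ± 0.15 and DDIT3 by 0.96 ± 0.19, with adjusted p-values of 0.143 and 0.523. With thapsigargin at 100 ng/mL HERPUD1 was at 527, 457 and 528 CPM and DDIT3 at 113, 81.2 and 90.5 CPM, all below the thapsigargin libraries at 10 ng/mL. HSPA8 differed the other way, by -0.90 ± 0.14 (adjusted p = 0.143, edgeR), with 1564, 1709 and 1747 CPM with vehicle and 835, 975 and 906 CPM with thapsigargin at 100 ng/mL. HOXA5 (-1.03 ± 0.22) and ZBTB7A (-0.88 ± 0.20) had the next smallest p on that side, with adjusted p-values of 0.616 and 0.681.

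**Figure D5:**
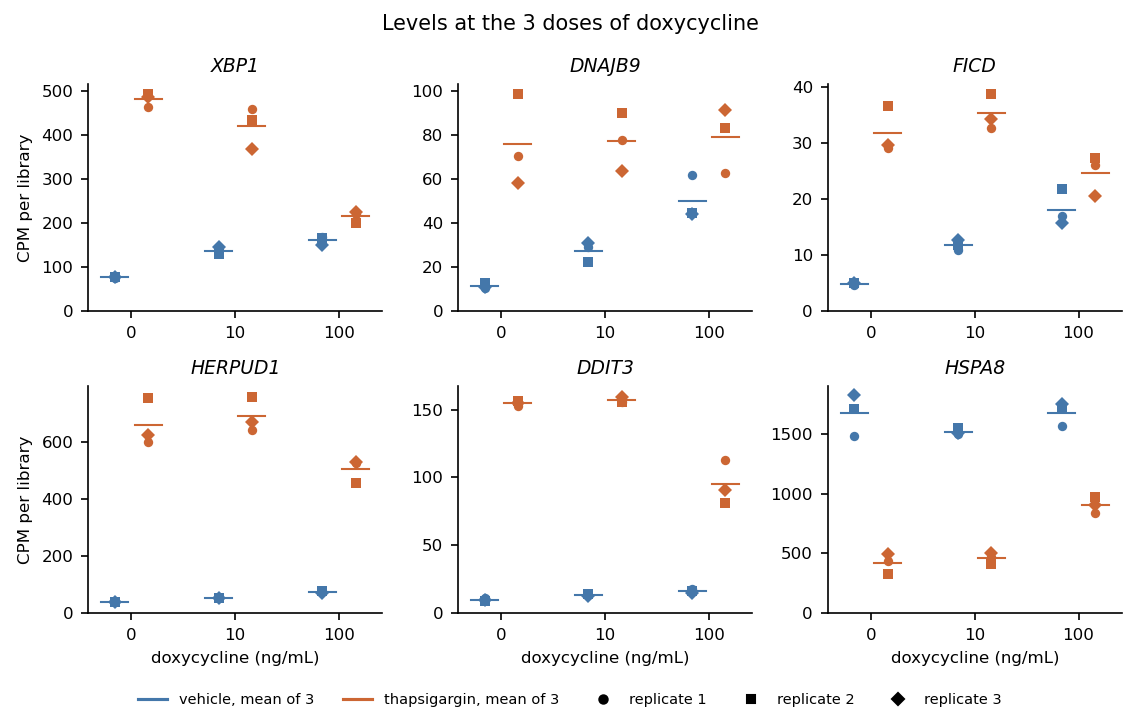
CPM of 6 genes in each library (vertical axis) at 0, 10 and 100 ng/mL doxycycline (horizontal axis), with vehicle and thapsigargin in separate colours and a bar at the mean of 3. Vehicle levels of XBP1, DNAJB9 and FICD are higher at 10 ng/mL than without doxycycline, and the thapsigargin levels of XBP1, HERPUD1 and DDIT3 at 100 ng/mL lie below those at 10 ng/mL.

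Over whole gene lists, the median log2 fold change of the PERK-ATF4-CHOP targets was 1.35 without doxycycline, 1.22 at the low dose and 0.86 at the high dose, and that of ER chaperones was 1.05, 1.01 and 0.51 in the same order. The UPR sensors and transcription factors had medians of 0.76, 0.50 and 0.10, and the heat-shock genes -0.50, -0.23 and -0.07. These 4 lists lay closest to 0 at the high dose. The RIDD substrates (-0.43, -0.57 and -0.61) and the matrix genes (-0.58, -0.50 and -0.79) lay furthest from 0 there. These differences between medians were not tested, and the median over all genes was -0.01 without doxycycline and at the low dose.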

How the data were processed

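The authors deposited one table of whole-number counts of reads per gene symbol, made with STAR on hg38 according to the submitters' processing notes, which also name DESeq2. The aligner version, the annotation and the strand setting of the counting are not given in the sources used here. The library kit marks the strand, but reads of a gene and its antisense or overlapping partner cannot be assumed to have been told apart. Among the symbols, 28 had been turned into dates, and columns of values that match no sample numbered 0. Groups and replicate numbers came from the sample titles. The comparison, the gene lists and the motifs were chosen with earlier results of these data known.

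Genes were kept by filterByExpr (minimum count 10), scaled by TMM and tested for thapsigargin minus vehicle within the 6 libraries by the quasi-likelihood test of edgeR 4.0.16 (limma 3.58.1, R 4.3.3), two-sided, with p-values adjusted by Benjamini-Hochberg across the whole tested table and a threshold of 0.01. The SE came from the F statistic (size of the log2 change over the root of F), and CPM uses TMM-scaled totals. Differences of responses were interaction terms over 12 libraries. DESeq2 1.42.0, RLE factors, library totals, no filter, all 6 groups in one fit, the replicate number as a block, a threshold of 0.05 and leaving out each library were alternatives, and removing a lowess trend on GC content (span 0.3) was added after seeing the data. In simulated counts 200 genes were changed 2-fold up or down, and libraries were drawn without patterns shared between replicates and without a GC trend. There edgeR recovered 76.5% of the changed genes in the comparison of 6 libraries (14477 genes). It recovered 31.5% in the difference from uninduced cells (14733 genes) and 4.00% in that from the high dose (14760 genes). DESeq2 recovered 85.0%, 55.0% and 33.0% in the same order, with 5.03%, 5.98% and 2.94% of its calls false, against 1.29%, 0% and 0% in edgeR.

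Genes were named by a rule: 12 UPR genes, the 12 highest and 12 lowest called genes without overlap and with a mean of at least 2 CPM, the 3 strongest called members and the lowest member of each list, and the 3 smallest adjusted p in each direction of each comparison. One gene that the rule names is not reported here. Other names fill out a count or a list and were chosen after their values were seen. Gene positions and protein starts came from GENCODE 29 (GRCh38), which held 22645 of the 25435 symbols, and promoters from RefSeq (GRCh38.p14). Python 3.11.15, pandas 2.3.3, numpy 2.4.6, biopython 1.88 and matplotlib 3.10.9 were used. Differences between replicates exceeded counting error (chi-square per degree of freedom at least 10.3), so the spread between libraries and not depth sets the error of all but the rarest genes.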

Additional observations from a re-analysis of the deposited data

Results flagged for a closer look

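In the 2 genes flagged, every thapsigargin library moved away from vehicle in one direction at 10 ng/mL doxycycline and in the opposite direction at 100 ng/mL. The share of such genes over all genes tested is not given here, so 2 is not to be read as a rare count. At 10 ng/mL 28.5% of all genes tested had groups apart, and 76.0% of shared genes had the same sign at 100 ng/mL. NFYA, a subunit of the factor that binds CCAAT boxes, was at 115, 116 and 117 CPM with vehicle and 103, 99.6 and 112 CPM with thapsigargin at 10 ng/mL, a log2 fold change of -0.15, against 0.27 at 100 ng/mL. The difference of -0.45 (10 minus 100) did not pass the threshold as an interaction (adjusted p = 0.787, edgeR). TRIB1, a pseudokinase related to TRIB3, had -0.24 at the low and 0.46 at the high dose, and its difference of -0.73 did not pass either (adjusted p = 0.787, edgeR).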

How the results depend on the processing

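The number of genes past the threshold at 10 ng/mL was 212 (169 higher and 43 lower). It was 1009 (642 and 367) at an adjusted p under 0.05, 1101 (667 and 434) in DESeq2, 529 (368 and 161) without the filter, 676 (461 and 215) with all 6 groups in one fit and 681 (470 and 211) with the GC trend removed, of which 194 were among the 212. RIDD substrates that fell numbered 4 in DESeq2, 4 without the filter, 3 with all 6 groups and 2 with the GC trend removed. RLE factors gave 205 and library totals 188. Leaving out 1 library gave 28 to 494 genes, 25 to 368 higher and 3 to 126 lower. Of 77 named genes, 33 lost the call without vehicle replicate 2 and 23 without thapsigargin replicate 2, and the response of none changed sign under any alternative. The 77 include genes that were not called in the main fit, such as ERN2, ERN1 and ATF6, and had no call to lose. The losses are thus a larger share of the named genes that had been called.

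With the replicate block 3620 genes passed (1954 higher and 1666 lower). Lists with few or no calls in the main fit had more calls with it. Of 81 cytosolic ribosomal protein genes 43 fell and 1 rose, and of 36 immediate-early and stress-kinase genes 17 rose and 1 fell. Of 32 COPII, COPI and ER-Golgi traffic genes 9 rose and 1 fell. Of 30 genes of ER targeting, translocation and N-glycosylation 1 rose and 6 fell. Same-numbered libraries deviated from their group means with correlations of 0.72, -0.04 and 0.70. Vehicle replicate 1 against thapsigargin replicate 3 gave -0.735, and vehicle replicate 3 against thapsigargin replicate 1 gave -0.665. Replicates 1 and 3 thus shared a pattern across the groups, while replicate 2 did not correlate best with its own number. The deviations of the 3 libraries of a group balance out in each gene, so these correlations are not independent of each other. The authors' methods name no block, so the replicate block was kept as an alternative. ERN2 passed in this fit alone (adjusted p = 3.71e-08), with an adjusted p of up to 0.580 in the other alternatives, and 6 of the 8 RIDD substrates fell in it.

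For 10 minus 0 ng/mL the count of 0 became 3 in DESeq2 and 1 at an adjusted p under 0.05, without the filter, with all 6 groups, with the replicate block and with the block within each dose. For 10 minus 100 ng/mL it became 8 in DESeq2 and 1 at an adjusted p under 0.05 and with all 6 groups, and stayed at 0 with either block. Both counts stayed at 0 without any 1 library. XBP1 passed for 10 minus 0 ng/mL in DESeq2 (adjusted p = 7.70e-09), without the filter, with all 6 groups and with either block, and over all alternatives its adjusted p ran from 7.70e-09 to 0.203. For 10 minus 100 ng/mL it passed in DESeq2 and with all 6 groups, with a range of 1.27e-08 to 0.407. ZBTB7A, at 0.03 for 10 minus 0 ng/mL, ranged from -0.10 to 0.14 when 1 library was left out and changed sign in 4 of those fits. The causes were not tested. Genes with the fewest reads, such as CCL8, have the largest counting error.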

Other observations

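The genes described here were grouped after their values were seen, so no test is given. Of 20 host genes of small nucleolar RNAs, whose spliced transcripts are known as targets of nonsense-mediated decay, 7 rose with thapsigargin at 10 ng/mL (35.0%, against 1.16% of all genes) and 0 fell, with a median log2 fold change of 0.52. The 7 calls depended on single libraries, with 0 of the 20 called without vehicle replicate 2 and 0 without thapsigargin replicate 2. Calls over all genes fell to 28 and 57 in those 2 fits. The median of the 20 was 0.50 and 0.47 there, and it ran from 0.47 to 0.56 over the alternatives. SNHG1 was at 59.7, 48.8 and 48.8 CPM with vehicle and 178, 138 and 117 CPM with thapsigargin, and GAS5 rose from 32.4 ± 2.55 to 58.0 ± 4.09 CPM (SD, n = 3). Neither gene had overlapping groups. The others that rose were SNHG17 (2.68-fold), EPB41L4A-AS1 (2.34-fold), C6orf48 (2.05-fold), SNHG12 (2.00-fold) and ZFAS1 (1.90-fold), and EPB41L4A-AS1 and ZFAS1 lie beside genes on the other strand. The median of the 20 was 0.74 without doxycycline and 0.11 at 100 ng/mL.

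Of 470 tested genes with a ZNF symbol, most of them zinc finger transcription factors, 6 rose (1.28%, near the 1.16% of all genes) and 0 fell in the main fit. When 1 library was left out, the number called ran from 1 without vehicle replicate 2 to 25 without thapsigargin replicate 3. In DESeq2 54 rose and 1 fell, and with the replicate block 203 rose and 2 fell, while 667 and 1954 of all genes rose in those fits. With all 6 groups 30 rose (461 of all genes), and with the GC trend removed 42 rose (470 of all genes). The nearness to the share of all genes is stated for the main fit only. All thapsigargin libraries lay above vehicle in 181 and below it in 7, against 15.6% and 12.9% of all genes tested. Their median was 0.35 at 10 ng/mL, 0.23 without doxycycline and 0.38 at 100 ng/mL, with a range of 0.24 to 0.43 over the alternatives at 10 ng/mL, the removal of the GC trend included.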
